A study of Xenopus laevis with 8 samples.

Results

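The genes described here mark paraxial mesoderm, the tissue beside the midline that forms somites and skeletal muscle, and the muscle lineage within it. They are myod1, myf5, msgn1, mespa, mespb, ripply2, pcdh8, tcf15, foxc1 and foxc2, 10 genes taken by name. Xenopus laevis is an allotetraploid frog, so most genes have a long (L) and a short (S) homeologous copy, and a few also have tandem copies numbered after a point. Rows of the count table whose identifier, or whose RefSeq symbol for a LOC identifier, carried one of these names were taken, which gave 24 rows of 35649 genes. Of these 24 rows, 16 had enough counts to be tested, 5 had some counts but too few, and 3 had no count in any library.

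In a vertebrate gastrula, T-box factors together with Wnt and FGF signals set up the mesoderm, and Msgn1, a basic helix-loop-helix (bHLH) factor, acts with them in the presomitic mesoderm. Mesp factors and Ripply repressors then place the segment borders, the protocadherin Pcdh8 (PAPC) acts in the movements and cell contacts of the presomitic mesoderm, and the forkhead factors Foxc1 and Foxc2 are required for somites in mice. Myf5 and Myod1 are the bHLH factors that commit cells to skeletal muscle, and in Xenopus both genes are already transcribed in the gastrula.

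The series asked how gain and loss of Pinhead, a secreted protein encoded by pnhd, change gene expression in gastrula explants. Flag-Pinhead ectoderm (2 samples) carried 1.5 ng of RNA for epitope-tagged Pinhead and was set against untreated control ectoderm (2 samples), all labelled stage 11. PhSpMo marginal zone (2 samples), labelled stage 10.5, had received 40 ng of a Pinhead morpholino in each blastomere at the 4-cell stage and was set against untreated control marginal zone (2 samples) of the same label, while the series' design text gives stage 11 for these explants. All animals are Xenopus laevis with no genotype given, and the number of embryos per sample is not stated. Whether the replicates are separate clutches is likewise not stated, and the p-values then reflect only how much these samples vary. Since the controls were untreated, an effect of injection itself cannot be told apart from that of the RNA or the morpholino.

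Total counts ran from 12551618 to 19719311 per sample, so 1 CPM (a count scaled to library size) stands for few reads. The injected pnhd.L reached 34466 and 64617 CPM in the Flag-Pinhead samples, against 16.02 and 18.30 CPM in control ectoderm. Which columns form each PhSpMo sample is not known: as named, the 2 samples differed by no more than columns of other samples did, while columns named for 1 sample differed more. All PhSpMo columns were therefore added as 1 unit, whose spread was not measured, and the test takes it to be that of the other groups. Ranges over the PhSpMo columns, given below, cannot be taken as spread between PhSpMo samples. As a check of the tissues, 14 mesoderm marker rows summed to 1002 to 1085 CPM in Flag-Pinhead ectoderm and 40.7 to 41.8 CPM in control ectoderm, and to 2037 CPM in PhSpMo and 2505 to 2614 CPM in control marginal zone. In these bulk samples fewer cells of a type and less RNA per cell cannot be told apart.

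In untreated tissue most members were higher in marginal zone. Of the 16 tested, 15 were higher in control marginal zone than in control ectoderm and 0 were lower, while 26.5% of all tested genes were higher and 26.3% lower, 52.8% in all (edgeR quasi-likelihood F test, Benjamini-Hochberg adjusted p under 0.05). Rows with few counts in ectoderm could pass the filter on low counts only through the marginal zone. Tissue and stage label cannot be told apart in this comparison, and the sample labels do not say whether both tissues came from the same experiment. For mespa, control marginal zone had 751 counts and control ectoderm 1, a ratio of 986 after scaling by library size that a single count leaves very uncertain (95% counting interval 176 to 39008). For pcdh8.2.L the ratio was 344 (201 to 647), from 3407 counts against 13. The ratio was 2.48 for myod1.L (1.77 to 3.51), and pcdh8.L did not pass the test at a ratio of 1.07 (0.708 to 1.62). These intervals cover counting error only.

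**Figure D1:**
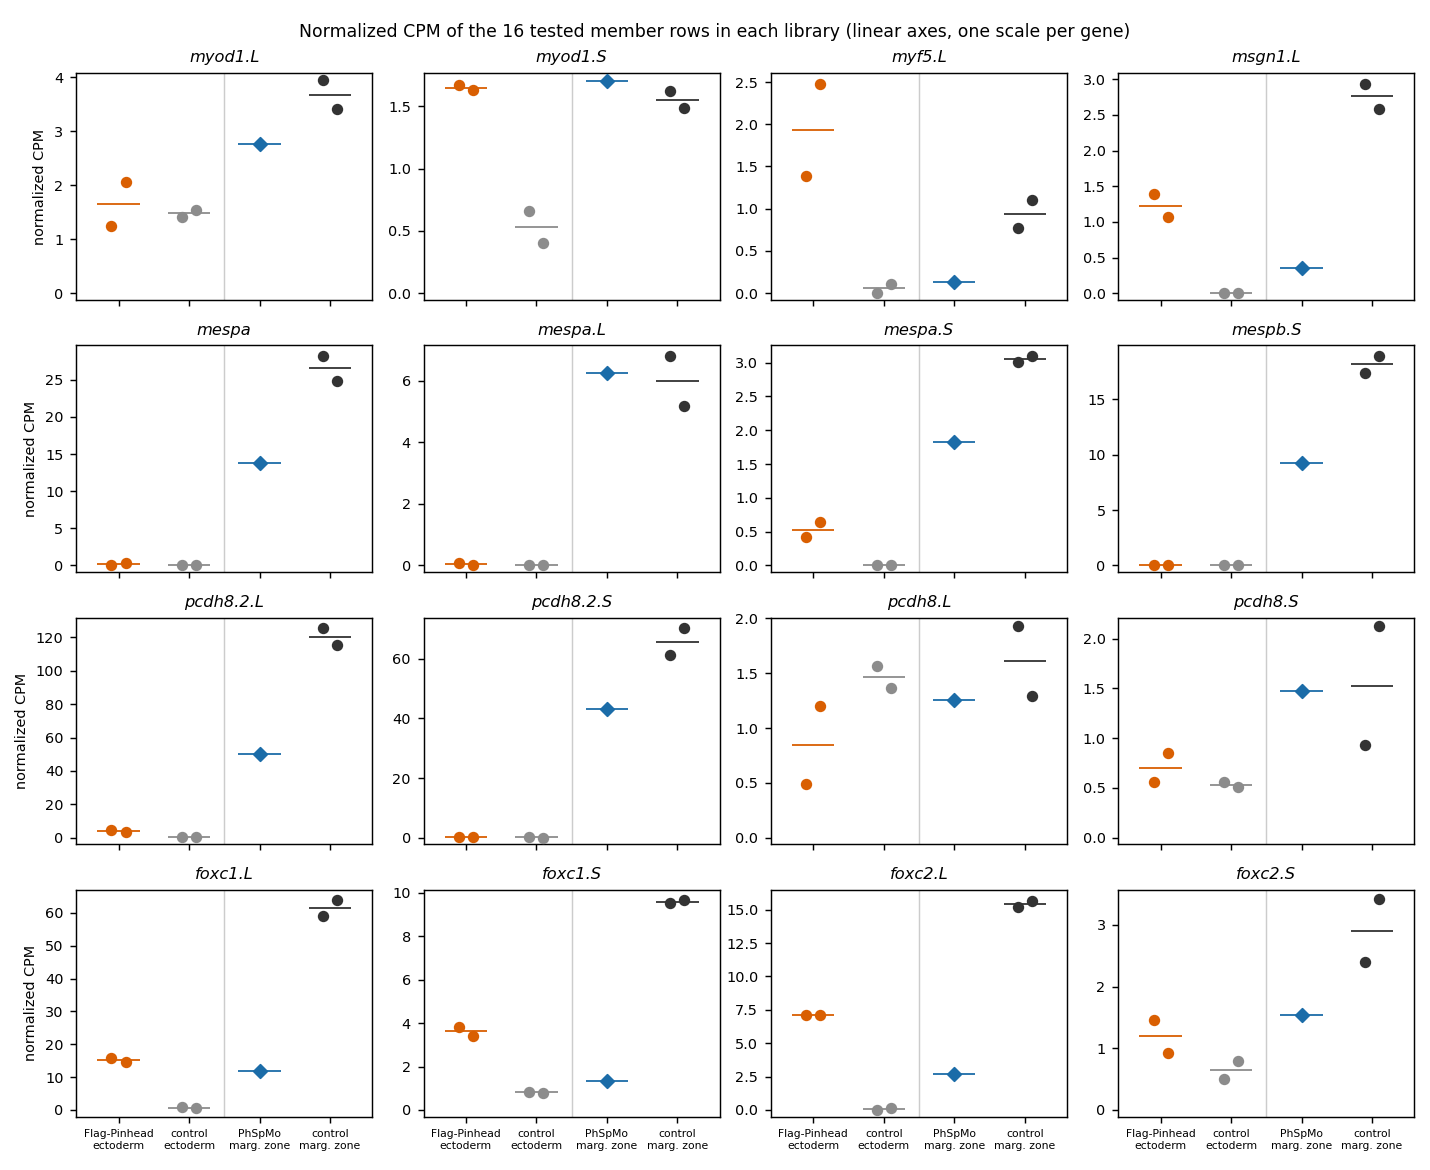
Normalized CPM (linear axis, one scale per gene) of the 16 tested rows in each library of Flag-Pinhead and control ectoderm and of PhSpMo and control marginal zone; points are samples, with PhSpMo drawn as its 1 unit, and horizontal lines are group means. For foxc1.L the Flag-Pinhead points lie at 15.8 and 14.6 CPM above control ectoderm at 0.808 and 0.627 CPM, and the PhSpMo point at 11.8 CPM lies below control marginal zone at 59.0 and 63.8 CPM.

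Flag-Pinhead RNA raised 8 of the 16 tested rows, from 7 genes, and lowered 0, while 15.5% of all tested genes were higher and 11.9% lower, 27.4% in all. Rows with 0 or 1 count in control ectoderm (msgn1.L, mespa, mespa.L, mespa.S and mespb.S) could not be called lower. Nor was there room for such a call in myf5.L with 2 counts and foxc2.L with 3. All these rows passed the filter on low counts through other groups, so their direction was limited in advance. Of the rows so limited, msgn1.L, mespa.S, myf5.L and foxc2.L rose. With 5 counts in Flag-Pinhead and 6 in control ectoderm, pcdh8.2.S also passed the filter only through the marginal zone. The rows that rose were foxc1.L, foxc1.S, foxc2.L, pcdh8.2.L, msgn1.L, myf5.L, mespa.S and myod1.S. Their levels in Flag-Pinhead ectoderm stood very differently against those of the marginal zone, from above the marginal zone for myf5.L to a few percent of it for pcdh8.2.L. PhSpMo lowered 9 of the 16 rows, also from 7 genes, and raised 0, while 10.5% of all tested genes were lower and 8.22% higher, 18.7% in all. Those were foxc1.L, foxc1.S, foxc2.L, msgn1.L, myf5.L, pcdh8.2.L, pcdh8.2.S, mespa and mespb.S. The median log2 fold change of the tested members was 2.38 with Flag-Pinhead RNA (1.89 with rows without counts in control ectoderm set to their bound, or to 0 where both groups had at most 3 counts) and -0.93 with PhSpMo, beside medians of 0.00 over all tested genes in both comparisons.

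**Figure D2:**
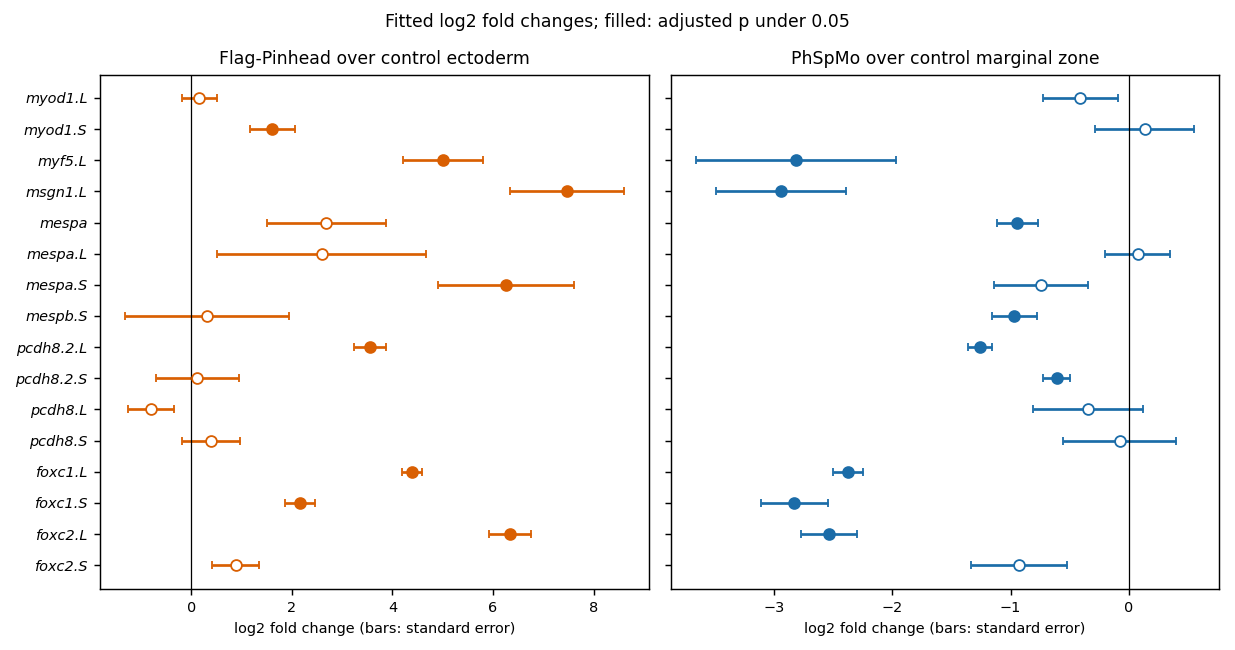
Fitted log2 fold change of each tested row with Flag-Pinhead RNA (against control ectoderm) and with PhSpMo (against control marginal zone); bars are standard errors and filled points have an adjusted p under 0.05. Of 16 rows, 8 are filled to the right of 0 with Flag-Pinhead RNA and 9 are filled to the left of 0 with PhSpMo; the points of rows with no count in a control have wide bars.

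Among the myogenic factors, myf5.L and myod1 behaved differently. The row myf5.L had 1.39 and 2.48 CPM in Flag-Pinhead ectoderm, against 0 and 0.114 CPM in control ectoderm. It had 0.128 CPM in PhSpMo marginal zone, with 0 to 0.248 CPM over its 4 columns, against 0.773 and 1.10 CPM in control marginal zone. The ectoderm groups did not overlap, and the PhSpMo unit, whose spread was not measured, lay below both control marginal zone samples. Both Flag-Pinhead samples stood above both control marginal zone samples. With Flag-Pinhead RNA myf5.L rose by 4.999 on the log2 scale (SE 0.79, edgeR adjusted p = 1.94e-05), a ratio of 36.1 that rests on 55 counts against 2 (counting interval 9.52 to 305). With PhSpMo it fell by 2.81 (SE 0.84, edgeR adjusted p = 0.0191), from 4 counts against 27; without control marginal zone replicate 2 the call is lost, at an adjusted p of 0.142. The mean in Flag-Pinhead ectoderm was 207% of that in control marginal zone, which did not pass the test (log2 difference 1.03, SE 0.51, edgeR adjusted p = 0.0825) except without Flag-Pinhead replicate 1 (adjusted p = 0.0405). The S copy had 5 counts in Flag-Pinhead ectoderm and 0 in control ectoderm, and 3 counts in PhSpMo and 10 in control marginal zone, too few to be tested.

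The Myod1 gene, unlike Myf5, was present in untreated ectoderm. The L copy had 1.25 and 2.06 CPM in Flag-Pinhead ectoderm, against 1.41 and 1.54 CPM in control ectoderm. These groups overlapped, and the log2 difference of 0.16 (SE 0.35, edgeR adjusted p = 0.789) had a counting interval of 0.743 to 1.68 for the ratio. In marginal zone myod1.L had 2.76 CPM with PhSpMo, against 3.94 and 3.42 CPM in controls, which did not pass the test (log2 difference -0.41, SE 0.32, edgeR adjusted p = 0.44). The S copy had 1.67 and 1.63 CPM in Flag-Pinhead ectoderm, against 0.657 and 0.399 CPM in control ectoderm, and rose by 1.62 (SE 0.45, edgeR adjusted p = 0.00721). Both treated samples stood above both controls, but the call is lost with DESeq2 (adjusted p = 0.0620) and without control ectoderm replicate 2 (adjusted p = 0.0897). In marginal zone myod1.S had 1.70 CPM with PhSpMo, against 1.62 and 1.48 CPM in controls, a log2 difference of 0.13 (SE 0.42, edgeR adjusted p = 0.887). The Flag-Pinhead mean of myod1.S was 106% of control marginal zone, and that of myod1.L 44.9%. With the counts of both copies added, myod1 rose by 0.71 with Flag-Pinhead RNA (SE 0.26, edgeR adjusted p = 0.0469) and did not pass with PhSpMo (-0.22, SE 0.25, edgeR adjusted p = 0.623).

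Of the bHLH factors of the presomitic mesoderm, msgn1.L passed the test in both arms, and so did mespa with its copies added. The row msgn1.L had 1.39 and 1.06 CPM in Flag-Pinhead ectoderm and no count in either control ectoderm sample. With 35 counts against 0, a floor of 3 counts over the control group put the bound on the ratio at 15.3 (edgeR adjusted p = 1.27e-05). This bound takes the 35 counts as exact, and the counting interval of the ratio began lower, at 11.8. In marginal zone it had 0.353 CPM with PhSpMo, against 2.94 and 2.58 CPM in controls, a fall of 2.94 on the log2 scale (SE 0.55, edgeR adjusted p = 0.000321). The 4 PhSpMo columns lay between 0.251 and 0.525 CPM, all below the controls. The S copy gave 3 counts in Flag-Pinhead ectoderm and 0 in control ectoderm, and 1 count in PhSpMo and 4 in control marginal zone. The mean of msgn1.L in Flag-Pinhead ectoderm was 44.5% of control marginal zone, a difference that passed (log2 -1.16, SE 0.41, edgeR adjusted p = 0.0167) but was lost without Flag-Pinhead replicate 2 (adjusted p = 0.0921) and without either control marginal zone sample (adjusted p = 0.0916 and 0.0518).

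The Mesp genes, which encode bHLH factors of the forming segment, had most of their counts in marginal zone. The row named mespa, which carries no copy letter and cannot be tied to L or S, had 0.0697 and 0.354 CPM in Flag-Pinhead ectoderm, against 0 and 0.057 CPM in control ectoderm. In marginal zone it had 13.8 CPM with PhSpMo, against 28.2 and 24.9 CPM in controls. The marginal zone difference passed the test (log2 -0.94, SE 0.17, edgeR adjusted p = 0.000192), and the ectoderm one, from 6 counts against 1, did not (adjusted p = 0.0949, or 0.0322 without Flag-Pinhead replicate 1). The row mespb.S had 9.27 CPM with PhSpMo, against 17.4 and 18.9 CPM in control marginal zone, a fall of 0.97 (SE 0.19, edgeR adjusted p = 0.000464). In ectoderm it had 1 count in Flag-Pinhead and 1 in control samples. By contrast mespa.L stood at 6.26 CPM with PhSpMo, against 6.80 and 5.16 CPM in control marginal zone, inside the range of the controls (log2 difference 0.07, SE 0.27, edgeR adjusted p = 0.909, counting interval of the ratio 0.857 to 1.31). The row mespa.S had 1.83 CPM with PhSpMo, against 3.02 and 3.10 CPM in controls, and did not pass (-0.74, SE 0.40, edgeR adjusted p = 0.23). It was the 1 Mesp row called in ectoderm, with 0.418 and 0.638 CPM in Flag-Pinhead samples and no count in controls (edgeR adjusted p = 0.000864). From 15 counts against 0, the floor of 3 counts put the bound on the ratio at 6.56, and the counting interval began at 4.70. Reads shared by mespa copies may have been split by the counting, so their single values are uncertain. With the 3 mespa rows added, Flag-Pinhead ectoderm had 22 counts, against 1 in control ectoderm, a ratio of 28.9 (counting interval 4.66 to 1191) that passed the test (fitted log2 fold change 4.53, SE 0.83, edgeR adjusted p = 0.000200). With the same rows added, PhSpMo gave a fall of 0.70 (SE 0.15, edgeR adjusted p = 0.00126).

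The Ripply2 repressors and Tcf15 (Paraxis), a bHLH factor of somite epithelium, were at the limit of detection. The rows ripply2.1.L, ripply2.1.S and tcf15.S had no count in any library, where 3 counts over all libraries would be 0.0241 CPM. The row tcf15.L had 11 counts in Flag-Pinhead ectoderm and 8 in control ectoderm, and 11 in PhSpMo and 6 in control marginal zone. The row ripply2.2.S had 4 counts in Flag-Pinhead and 8 in control ectoderm, and 1 in PhSpMo and 6 in control marginal zone, and ripply2.2.L had 3 counts, all in Flag-Pinhead replicate 2. No difference in these rows was detectable at this depth.

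The protocadherin rows split into a pair with high and a pair with low levels in marginal zone. RefSeq places pcdh8.2 next to pcdh8 on chromosomes 2L and 2S with 0 protein-coding genes between them. The row pcdh8.2.L had 50.2 CPM with PhSpMo, against 125 and 115 CPM in control marginal zone, and fell by 1.26 (SE 0.10, edgeR adjusted p = 6.77e-10). The row pcdh8.2.S had 43.2 CPM with PhSpMo, against 61.3 and 70.3 CPM in controls, and fell by 0.61 (SE 0.11, edgeR adjusted p = 0.000306). All 4 PhSpMo columns of each row lay below both controls. In ectoderm the copies differed: pcdh8.2.L had 4.74 and 3.61 CPM with Flag-Pinhead RNA, against 0.202 and 0.513 CPM in controls, and rose by 3.56 (SE 0.32, edgeR adjusted p = 1.9e-09). The row pcdh8.2.S had 0.139 and 0.213 CPM with Flag-Pinhead RNA, against 0.253 and 0.057 CPM in controls, with overlapping groups (log2 difference 0.12, SE 0.83, edgeR adjusted p = 0.938). Even after its rise, the mean of pcdh8.2.L in Flag-Pinhead ectoderm was 3.47% of that in control marginal zone, and that of pcdh8.2.S was 0.267%. The neighbouring pcdh8.L and pcdh8.S were called in neither arm. With Flag-Pinhead RNA pcdh8.L had 0.488 and 1.20 CPM, against 1.57 and 1.37 CPM in control ectoderm (log2 difference -0.80, SE 0.45, edgeR adjusted p = 0.216). The row pcdh8.S had 0.557 and 0.850 CPM with Flag-Pinhead RNA, against 0.556 and 0.513 CPM in control ectoderm (0.39, SE 0.58, edgeR adjusted p = 0.682). In marginal zone pcdh8.L differed by -0.35 with PhSpMo (SE 0.47, edgeR adjusted p = 0.693) and pcdh8.S by -0.08 (SE 0.48, edgeR adjusted p = 0.947).

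The forkhead genes had strong calls in both arms. The row foxc1.L had 15.8 and 14.6 CPM in Flag-Pinhead ectoderm, against 0.808 and 0.627 CPM in control ectoderm, and rose by 4.38 on the log2 scale (SE 0.20, edgeR adjusted p = 1.48e-15). In marginal zone foxc1.L had 11.8 CPM with PhSpMo, against 59.0 and 63.8 CPM in controls, and fell by 2.37 (SE 0.13, edgeR adjusted p = 4.43e-13). The ectoderm groups did not overlap, and the PhSpMo unit lay below both control marginal zone samples. The Flag-Pinhead mean was 24.8% and the PhSpMo level 19.3% of control marginal zone. The S copy had 3.83 and 3.40 CPM with Flag-Pinhead RNA, against 0.808 and 0.798 CPM in control ectoderm, and rose by 2.16 (SE 0.30, edgeR adjusted p = 3.03e-06). With PhSpMo foxc1.S had 1.35 CPM, against 9.51 and 9.68 CPM in control marginal zone, a fall of 2.83 (SE 0.29, edgeR adjusted p = 4.26e-08).

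The calls for foxc2 were in its L copy. The row foxc2.L had 7.11 and 7.09 CPM in Flag-Pinhead ectoderm, against 0 and 0.171 CPM in control ectoderm. From 202 counts against 3 the ratio was 88.3 (counting interval 29.8 to 432; fitted log2 fold change 6.34, SE 0.42, edgeR adjusted p = 3.54e-12). With PhSpMo foxc2.L had 2.66 CPM, against 15.2 and 15.7 CPM in control marginal zone, and fell by 2.53 (SE 0.24, edgeR adjusted p = 1.1e-08). The Flag-Pinhead samples agreed closely with each other, and no PhSpMo column exceeded 3.39 CPM. The S copy had 1.46 and 0.921 CPM with Flag-Pinhead RNA, against 0.505 and 0.798 CPM in control ectoderm, which did not pass (0.88, SE 0.47, edgeR adjusted p = 0.179). With PhSpMo it had 1.54 CPM, against 2.40 and 3.42 CPM in control marginal zone, also not past the threshold (-0.93, SE 0.41, edgeR adjusted p = 0.124), but past it when the PhSpMo samples were kept apart as named (adjusted p = 0.0412) or when only the marginal zone groups were fitted (adjusted p = 0.0478).

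**Figure D3:**
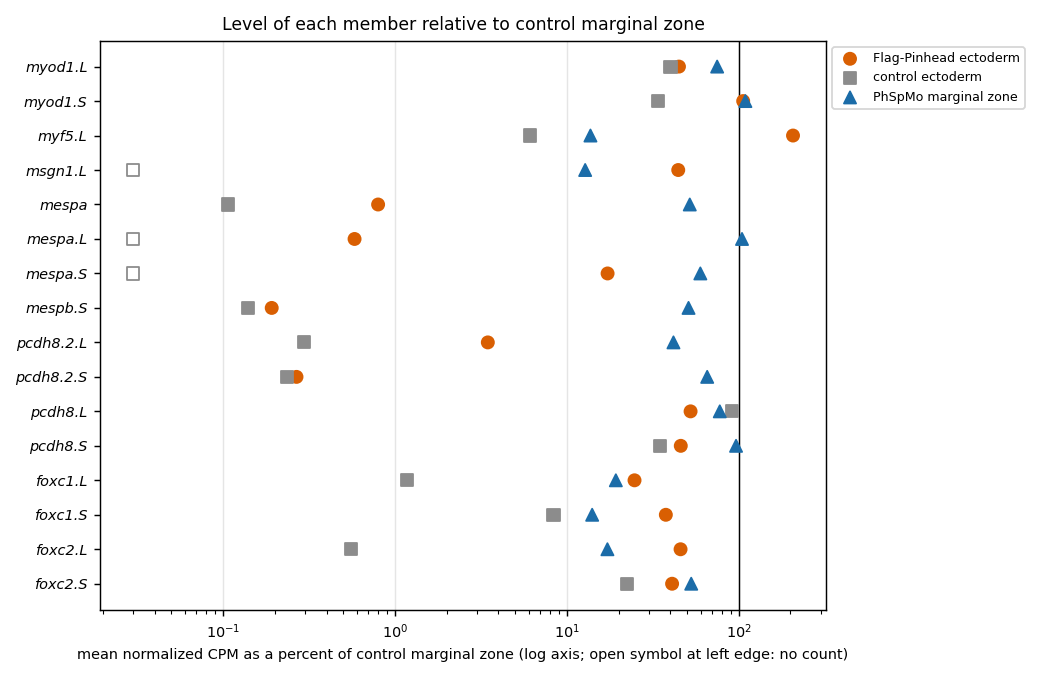
Mean normalized CPM of each tested row as a percent of its mean in control marginal zone (log axis) for Flag-Pinhead ectoderm, PhSpMo marginal zone and control ectoderm; open symbols at the left edge had no count. Flag-Pinhead ectoderm spans 0.192% for mespb.S to 207% for myf5.L, and PhSpMo marginal zone spans 12.8% for msgn1.L to 109% for myod1.S.

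Set against control marginal zone, Flag-Pinhead ectoderm stood at very different shares from row to row. Of the 16 tested rows, 12 were lower in Flag-Pinhead ectoderm and 0 were higher, while 28.2% of all tested genes were lower and 31.5% higher, 59.7% in all. This comparison also differs in tissue and stage label, and it shares both its groups with the comparisons above. Whether both tissues came from the same experiment is not given by the sample labels. Rows with few counts in Flag-Pinhead ectoderm could pass the filter on low counts only through the marginal zone. Among them were mespb.S with 1 count against 518, mespa.L with 1 against 168 and pcdh8.2.S with 5 against 1882. The direction of such rows was limited in advance. The shares ran in order from 207% for myf5.L and 106% for myod1.S to 52.5% for pcdh8.L, 46.0% for pcdh8.S and 45.9% for foxc2.L. Next came 44.9% for myod1.L, 44.5% for msgn1.L, 41.0% for foxc2.S, 37.7% for foxc1.S, 24.8% for foxc1.L and 17.3% for mespa.S. They were lowest at 3.47% for pcdh8.2.L, 0.798% for mespa, 0.582% for mespa.L, 0.267% for pcdh8.2.S and 0.192% for mespb.S. Untreated control ectoderm already stood at 91.0% for pcdh8.L, 40.1% for myod1.L, 35.0% for pcdh8.S and 34.0% for myod1.S. It stood at 0.235% for pcdh8.2.S and 0.139% for mespb.S, so a share alone does not show a response to the RNA. The rows that did not pass this test were myf5.L, myod1.S, pcdh8.L and pcdh8.S. With PhSpMo the shares of control marginal zone were 12.8% for msgn1.L, 13.7% for myf5.L, 14.04% for foxc1.S, 17.2% for foxc2.L and 19.3% for foxc1.L. They were 41.7% for pcdh8.2.L, 51.1% for mespb.S, 51.9% for mespa and 65.6% for pcdh8.2.S. The 5 rows left with the smallest share under PhSpMo thus came from msgn1, myf5, foxc1 and foxc2, and the rows of pcdh8.2 and the called Mesp rows kept a larger share.

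The L and S copies of a gene were then compared in their responses, by testing the difference between the copies itself over 4140 genes with 2 tested copies. With Flag-Pinhead RNA 16.3% of these genes had copies that differed in response, as did 3 of 6 member pairs. The fold change of foxc1.L exceeded that of foxc1.S by 2.22 on the log2 scale (SE 0.36, edgeR adjusted p = 0.000359), and that of foxc2.L exceeded foxc2.S by 5.46 (SE 0.63, edgeR adjusted p = 1.89e-05). For pcdh8.2 the difference was 3.43 (SE 0.89, edgeR adjusted p = 0.0312), a call lost without Flag-Pinhead replicate 1 (adjusted p = 0.103) or control ectoderm replicate 1 (adjusted p = 0.733). For myod1 the S copy had the larger change, by 1.45 (SE 0.56), which did not pass (edgeR adjusted p = 0.0521) but did without Flag-Pinhead replicate 2 (0.0372) and with the PhSpMo samples kept apart as named (0.0376). With PhSpMo 7.17% of the genes differed between copies, and 2 of the 6 member pairs did. The fall of foxc2.L exceeded that of foxc2.S (difference -1.61, SE 0.47, edgeR adjusted p = 0.0321), and so did that of pcdh8.2.L against pcdh8.2.S (-0.65, SE 0.15, edgeR adjusted p = 0.0152). Both of these calls are lost without either control marginal zone sample, at adjusted p between 0.0636 and 0.282. For foxc1 the copies fell by amounts whose difference did not pass (0.45, SE 0.31, edgeR adjusted p = 0.401). Between the untreated tissues the copies differed in 42.2% of the genes and in 2 of the 6 member pairs, foxc1 (difference 2.83, SE 0.31, edgeR adjusted p = 5.01e-06) and foxc2 (5.30, SE 0.55, edgeR adjusted p = 5.79e-06), again with the larger difference in the L copy. Between Flag-Pinhead ectoderm and control marginal zone they differed in 47.8% of the genes and in 4 of the 6 member pairs, foxc1, mespa, myod1 and pcdh8.2. Of these, the calls of foxc1 and myod1 are lost without Flag-Pinhead replicate 1 and without either control marginal zone sample. The foxc1 call is also lost without Flag-Pinhead replicate 2. Reads that match both copies may have been assigned to either, so the differences between copies carry that uncertainty.

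**Figure D4:**
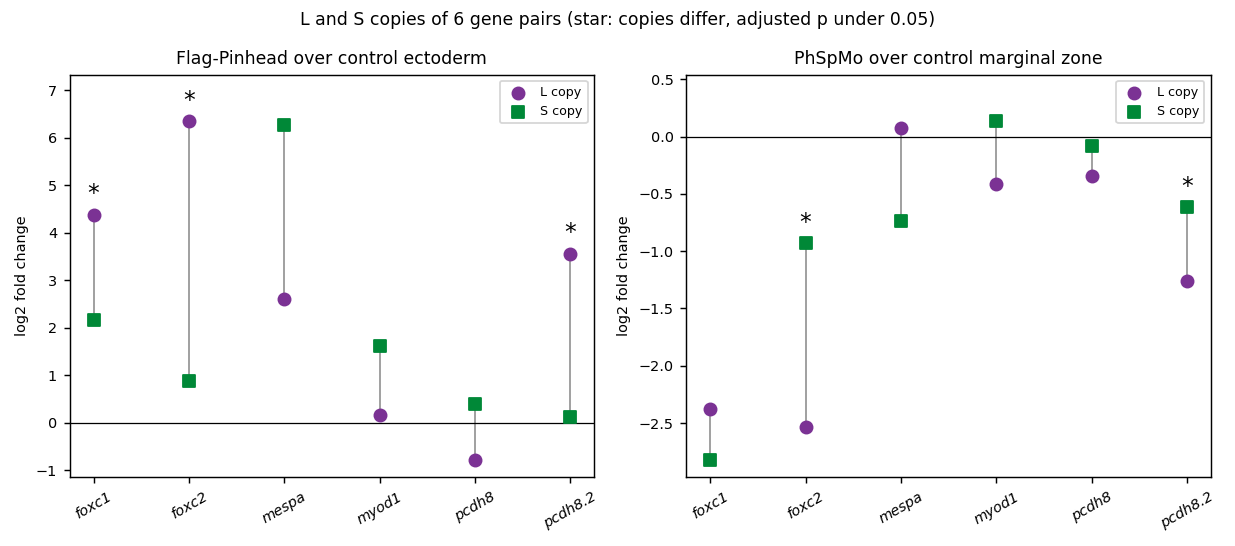
Fitted log2 fold change of the L and the S copy of 6 gene pairs with Flag-Pinhead RNA and with PhSpMo; a line joins the copies of a gene and a star marks copies whose responses differed at an adjusted p under 0.05. Stars stand over foxc1, foxc2 and pcdh8.2 with Flag-Pinhead RNA and over foxc2 and pcdh8.2 with PhSpMo; the points of mespa with Flag-Pinhead RNA rest on 0 counts in control ectoderm and are no bound.

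The genes that act before the members changed widely. The list of upstream regulators was drawn from T-box, Wnt, FGF, FGF receptor and Cdx genes and from foxh1, tcf7, tcf7l1, lef1 and sp5. Of its 34 tested rows, Flag-Pinhead RNA raised 27 and lowered 5, with a median log2 fold change of 3.28. The T-box gene vegt.L had 219 ± 11.5 CPM in Flag-Pinhead ectoderm and 13.3 ± 0.609 CPM in control ectoderm, and the brachyury copy t.L had 130 ± 19.4 and 2.39 ± 0.0904 CPM in the same groups (SD, n = 2 each). PhSpMo lowered 20 of these rows and raised 2, with a median of -0.62. Beside this list and the lists below, 15.5% of all tested genes were higher and 11.9% lower with Flag-Pinhead RNA. With PhSpMo 8.22% of all tested genes were higher and 10.5% lower. The ligand gene wnt8a.L had 44.8 CPM with PhSpMo, against 112 ± 1.56 CPM in control marginal zone, and the homeobox gene cdx2.L had 12.96 CPM, against 57.7 ± 0.835 CPM (SD, n = 2 controls).

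Genes of Notch signalling and the segmentation clock, which times somite formation, moved mainly upward in ectoderm. Of 41 tested rows 27 rose and 3 fell with Flag-Pinhead RNA (median 1.27), and 4 rose and 15 fell with PhSpMo (median -0.16, or -0.14 with rows without counts at their bound). Over all tested genes 8.22% were higher and 10.5% lower with PhSpMo. The Notch ligand gene dll1.S had 56.7 ± 7.26 CPM in Flag-Pinhead ectoderm and 7.10 ± 1.33 CPM in control ectoderm (SD, n = 2 each). The transcriptional repressor gene hes1.L had 10.1 CPM with PhSpMo, against 26.6 ± 1.74 CPM in control marginal zone (SD, n = 2 controls).

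Of 35 rows for later somite and dermomyotome genes, 22 could be tested. Flag-Pinhead RNA raised 13 and lowered 1 (median 0.93), and PhSpMo raised 0 and lowered 14 (median -0.76). The Eph receptor gene epha4.S had 139 ± 2.44 CPM in Flag-Pinhead ectoderm and 47.1 ± 1.20 CPM in control ectoderm (SD, n = 2 each), and 107 CPM with PhSpMo, against 193 ± 5.02 CPM in control marginal zone (SD, n = 2). The paired-box gene pax3.L, which is also known from neural crest and the neural plate border, had 23.4 ± 6.32 CPM in Flag-Pinhead ectoderm and 4.62 ± 0.963 CPM in control ectoderm (SD, n = 2 each). Its level in control marginal zone was 0.613 ± 0.227 CPM (SD, n = 2).

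Partners of the myogenic factors had calls in both directions. Of 20 tested rows of myogenic partners and inhibitors, 4 rose and 4 fell with Flag-Pinhead RNA (median -0.03), and 1 rose and 6 fell with PhSpMo (median -0.13). The gene tcf3.L, for an E protein that pairs with Myod1, had 186 ± 2.21 CPM in Flag-Pinhead ectoderm and 105 ± 6.14 CPM in control ectoderm (SD, n = 2 each). The gene id2.L, for an inhibitor of such pairing, had 114 ± 13.2 CPM in Flag-Pinhead ectoderm and 151 ± 3.73 CPM in control ectoderm (SD, n = 2 each). The later myogenic factors myf6 and myog had no count in any library over 2 rows each. Of 40 rows of muscle structural genes only 13 could be tested: 3 rose and 2 fell with Flag-Pinhead RNA (median 0.32), and 0 passed in either direction with PhSpMo (median -0.37). The cardiac myosin gene myh6.S, with 27 counts in PhSpMo and 46 in control marginal zone, was one of these. With Flag-Pinhead RNA the share called in either direction was 94.1% of upstream regulators, 73.2% of Notch and clock rows, 63.6% of somite rows, 40% of myogenic partners and 38.5% of muscle structural rows, beside 27.4% of all tested genes. With PhSpMo the share was 64.7% of upstream regulators, 46.3% of Notch and clock rows, 63.6% of somite rows, 35% of myogenic partners and 0% of muscle structural rows, beside 18.7% of all tested genes; differences between lists were not tested.

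**Figure D5:**
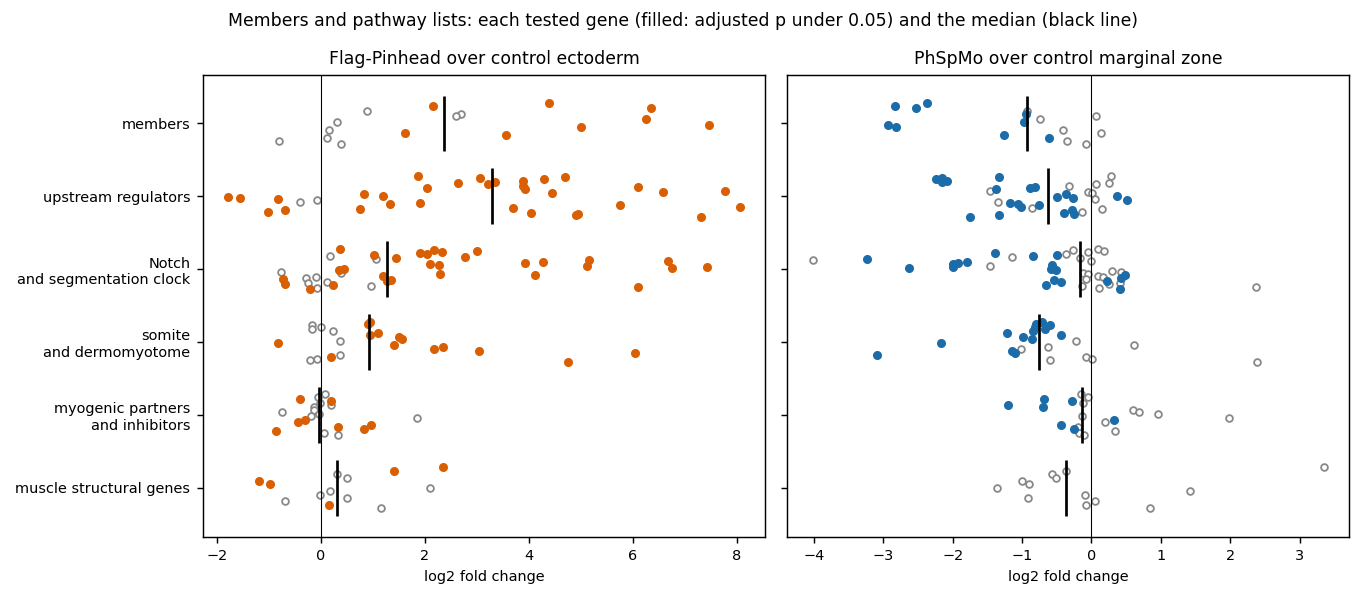
Log2 fold changes of the tested members and of the 5 pathway lists with Flag-Pinhead RNA and with PhSpMo; each point is a tested gene, filled where the adjusted p was under 0.05, and the black line is the median. The upstream regulators have a median of 3.28 with Flag-Pinhead RNA, above the 2.38 of the members, and the muscle structural genes have no filled point with PhSpMo.

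Markers of other tissues moved in the same samples. With Flag-Pinhead RNA 10 of 15 tested neural plate rows rose and 1 fell, and 12 of 18 notochord and organizer rows rose. Of 21 epidermis rows 13 fell and 5 rose, and 5 of 18 endoderm rows rose. Over all tested genes 15.5% were higher and 11.9% lower. The lists share some genes, such as otx2 (neural plate and organizer) and mixer (mesoderm and endoderm). Of 21 tested lateral and ventral mesoderm rows 7 rose and 6 fell, and 28 such rows summed to 497 to 597 CPM in Flag-Pinhead ectoderm and 815 to 825 CPM in control ectoderm. In this sum gata2.L had 55.4 and 167 CPM and gata2.S 30.1 and 116 CPM in the same groups. The level of gata2.L in control marginal zone was lower, at 90.9 CPM, so the sum is not particular to mesoderm. The rows osr1 and osr2.L had 1 and 5 counts in control ectoderm. The summed level of 18 endoderm rows was 49.0 to 51.0 CPM in Flag-Pinhead ectoderm and 18.4 to 19.9 CPM in control ectoderm, with 0 rows without a count in Flag-Pinhead ectoderm and 1 in control ectoderm. Besides the member rows, PhSpMo lowered 14 of 18 endoderm, 15 of 21 epidermis, 8 of 18 notochord and organizer, 11 of 21 lateral and ventral mesoderm and 7 of 15 neural plate rows. It raised 1 lateral and ventral mesoderm row and 1 neural plate row. Over all tested genes 10.5% were lower and 8.22% higher with PhSpMo. The endoderm rows summed to 548 CPM with PhSpMo, against 835 to 860 CPM in control marginal zone, and 29 epidermis rows to 1506 CPM, against 2180 to 2218 CPM. The part of tissue makeup in the members' changes was not tested.

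Genes with the most similar profile were sought among 14486 expressed genes, by Euclidean distance between log2(CPM + 0.5) values centred over the 7 units. The nearest to msgn1.L was another member, foxc1.S, at a distance of 0.503, followed by tril.L at 0.658 and plekho1.L at 0.723. Among the nearest to myf5.L were dhcr7 at 0.675 and hes1.L at 0.679. Among the nearest to myod1.L were chd8.L at 0.282 and ndfip1 at 0.299. A small distance describes these 7 units and is given with no test.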

How the data were processed

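Messenger RNA of 8 explant samples was enriched on oligo(dT) beads, reverse transcribed from random primers and read on HiSeq2000 machines, per the labels' protocols. The submitters' processing notes list CASAVA 1.8, HISAT2, SAMtools and HTSeq. The build, the annotation and the counting options, strand use among them, were not given in the sources used here. In the deposit, 1 table holds raw counts per gene, not normalized by the authors, for 35649 genes in 16 columns, 2 per sample, which were added. Mistyped names of 2 columns were assigned to control marginal zone replicate 1, since each other sample has its own columns. Of 24313 LOC identifiers, 21071 were found in a RefSeq gene table (X. laevis v10.1) and 11186 were given its symbol.

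By the mean chi-square of counts over genes with at least 50 counts, the PhSpMo samples differed by 1.43, as columns of other samples did (1.29 to 1.46), while columns named for 1 PhSpMo sample differed by 2.38 and 2.44. Columns with the same last digit differed by 1.30 and 1.36 across the PhSpMo samples, and by 3.41 between digits once summed, so which columns form a sample is not known. The same measure was 11.9 between the Flag-Pinhead samples, 2.27 between control ectoderm samples and 2.05 between control marginal zone samples. The Flag-Pinhead value takes in the injected pnhd.L, at 34466 and 64617 CPM, and was not computed without it. It therefore does not describe how far the other genes differed. The PhSpMo columns were therefore summed as 1 unit, leaving 7 units and 3 residual degrees of freedom. Counts were tested with edgeR 4.0.16 (R 4.3.3): filterByExpr with a minimum of 10 counts (22241 genes left), TMM factors, group means over all groups, quasi-likelihood F tests and Benjamini-Hochberg adjustment over all tested genes at 0.05. Differences between homeologs were tested with diffSpliceDGE. Each standard error of a row, or of copies added together, is the log2 fold change over the root of its F. For a difference between copies it is the root of the summed squares of the standard errors of both rows. That standard error and the diffSpliceDGE p beside it thus come from different calculations. Library sizes scaled by TMM gave the normalized CPM; counting intervals are exact 95% binomial intervals, and floors are 3 counts over a group; both cover counting error only. The fit was tested on simulated data, where the share of false calls was above the threshold of 0.05. DESeq2 1.42.0 was an alternative. The members and gene lists were chosen with earlier results of these data known. Named genes are all members, from each list up to 4 rows per comparison with the lowest p among those called (up to 2 where none was), of which a part is given, and the 3 nearest profiles of 3 members, of which some are withheld for evaluation and not reported here. Same-numbered samples were not paired by any label. Sequences and promoters were not analysed here.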

Additional observations from a re-analysis of the deposited data

How the results depend on the processing

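There were 948 values of the 16 tested rows in 4 comparisons and 15 alternatives. Of these, 919 kept their side of the threshold, 18 lost their call and 11 gained one. Direction was checked only where the row was called in the reported or the alternative fit, and there 0 values changed direction. A change of sign in a row called in neither fit was not counted. With L and S counts added per gene, 8 of 9 tested genes (pcdh8 and pcdh8.2 taken apart) were higher in control marginal zone than in control ectoderm. Counted singly, 15 of 16 rows were higher, beside 26.5% of all tested genes. The count of 8 is smaller because fewer units were tested. The share over all genes with copies added is not given. Leaving out 1 replicate at a time, rows higher in Flag-Pinhead ectoderm than in control marginal zone ranged from 0 to 1 (myf5.L, without Flag-Pinhead replicate 1). Copy pairs whose responses differed ranged from 2 to 4 with Flag-Pinhead RNA, from 0 to 2 with PhSpMo, from 2 to 3 between the untreated tissues and from 2 to 4 for Flag-Pinhead ectoderm against control marginal zone. The call of pcdh8.S as higher in control marginal zone than in control ectoderm was lost with DESeq2 (adjusted p = 0.0840), with the replicate block (0.0915), and without control ectoderm replicate 1 (0.0563), control ectoderm replicate 2 (0.0669) or control marginal zone replicate 2 (0.358). That of myod1.S was lost without control ectoderm replicate 2 (0.0667) and with the block (0.0574). In Flag-Pinhead ectoderm against control marginal zone, foxc2.S lost its call without Flag-Pinhead replicate 2 (0.0540), without control marginal zone replicate 2 (0.0969) and with the block (0.0743). There the call of msgn1.L was also lost with DESeq2 (0.111) and with the block (0.150). In the same comparison pcdh8.L was called as lower without Flag-Pinhead replicate 2 (0.0204), and pcdh8.S (0.0524 as reported) without control marginal zone replicate 1 (0.0159), with 8 libraries as named (0.0383), with PhSpMo columns summed by last digit (0.0448), with DESeq2 size factors (0.0494), with no filter (0.0348) and with a robust spread estimate (0.0460). The causes were not tested. DESeq2 gave no adjusted p with PhSpMo for 6 members, 2 of them called by edgeR, msgn1.L and myf5.L. These are not among the 948 values, so DESeq2 gives no check of those 2 calls. Also missing are Flag-Pinhead responses of rows that failed the filter on low counts when only the ectoderm groups were fitted. The called row mespa.S was one of them, so that fit gives no check of its call. Over all genes, calls with Flag-Pinhead RNA numbered 6088, against 3892 with DESeq2 and 4054 without control ectoderm replicate 1; with PhSpMo they numbered 4153, against 2377 with DESeq2 and 2672 and 2471 without control marginal zone replicates 1 and 2.

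Deviations of same-numbered samples from their group means correlated at -0.0107 in ectoderm and -0.0159 in marginal zone. The marginal zone value took the PhSpMo samples as named. Since it is not known which columns form them, it cannot show whether samples were paired. In ectoderm same-numbered samples showed no shared deviation by this measure, and whether they share a clutch is not stated. In a fit of 8 libraries as named with the replicate number as a block, 8 rows were higher with Flag-Pinhead RNA, 9 lower with PhSpMo, 13 higher in control marginal zone than control ectoderm, and 10 lower in Flag-Pinhead ectoderm than control marginal zone, against 8, 10, 15 and 13 in the 8-library fit without the block and 8, 9, 15 and 12 as reported. Over all genes, calls in either direction numbered 6180, 5372, 10225 and 11715 in the same order with the block. They numbered 6518, 5662, 12070 and 13387 in the 8-library fit without the block, and 6088, 4153, 11737 and 13282 as reported. Each total over all genes was lower with the block than in the 8-library fit without it. Depth limits what can be seen in rows near or below 1 CPM.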

Other observations

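The 2 columns of a sample had totals in a ratio (first over second) of 1.01 in each of the 6 ectoderm and control marginal zone samples, and of 0.944 and 0.946 in the PhSpMo samples as named. With the PhSpMo columns taken by the last digit of their names, the ratio of sample 2 over sample 1 was 1.01 for each digit. Between the Flag-Pinhead samples, replicate 2 over replicate 1 gave a CPM ratio of 1.78 for myf5.L, 1.64 for myod1.L and 2.47 for pcdh8.L, and of 0.997 for foxc2.L and 0.975 for myod1.S.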
